A study of Mus musculus with 2 samples.

Results

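The genes described here serve redox defence and the pentose phosphate pathway in regulatory T (Treg) cells. They are 37 genes of glutathione, thioredoxin, peroxiredoxin and superoxide metabolism, genes of the NRF2 response, and 5 enzymes that make NADPH or rearrange sugars in the pentose phosphate pathway. They were chosen by name from what the proteins are known to do, but with earlier results of these data known. All 37 were among the 16830 genes measured. RNA came from CD4+CD25hiYFP+ Treg cells sorted from spleen and lymph node of 6-month old C57BL/6 mice. WT Treg cells came from mice with Foxp3-YFP-Cre and intact *Usp21*, and USP21-ΔTreg cells came from mice that also carried floxed *Usp21*. Both groups thus share the Cre-YFP knock-in, which is driven by *Foxp3*, the gene of the Treg lineage factor, so *Usp21* was targeted in cells that turn *Foxp3* on. There were 2 libraries, 1 per genotype, and whether animals were pooled is not given in the sources used here. No replicate error could be had, no test was made, and every difference below is a difference between these libraries.

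Reactive oxygen species made by mitochondria and by oxidases are removed by superoxide dismutases, catalase, peroxiredoxins and glutathione peroxidases. Peroxiredoxins draw their electrons from thioredoxin and the peroxidases draw theirs from glutathione, and both carriers are recharged with NADPH, much of which comes from the pentose phosphate pathway. The transcription factor NRF2, held back by KEAP1 in unstressed cells, binds antioxidant response elements and turns on many of these genes.

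The antioxidant response element has the core letters TGACNNNGC, and the RefSeq promoter windows of the genes (assembly GRCm38.p6, from 250 bases before to 50 bases after each annotated start) were searched for it on both strands. A window was matched for 33 of the 37 genes, and 9 of these (27.3%) held the core. Not matched were *Hmox1*, *Gclc*, *Gsr* and *Prdx6*. Of all 27025 genes with a window, 14.0% held it, and of the 8221 with a mean level of at least 1 FPKM (fragments scaled to transcript length and library size) 17.0% did. The 9 include *Gstm5*, whose mean lay below 1 FPKM. Genes of the NRF2 response were put in the list by choice, so a share above that of all genes is no finding about these data. A match is a stretch of letters and not a measured binding site. Sequence outside the windows was not searched, so a gene without a match may hold the core elsewhere. The matches with up to 20 bases on either side are shown to let the sites be compared, each on the strand that reads TGAC first, with the core in capitals.
*Nfe2l2*, chr2:75704875-75704913, minus strand: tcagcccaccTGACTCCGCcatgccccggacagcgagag
*Srxn1*, chr2:152105532-152105573, minus strand: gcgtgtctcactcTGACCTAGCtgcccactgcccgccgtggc
*Gstm5*, chr3:107895792-107895840, plus strand: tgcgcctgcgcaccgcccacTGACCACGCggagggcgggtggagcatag
*Gclm*, chr3:122245403-122245451, minus strand: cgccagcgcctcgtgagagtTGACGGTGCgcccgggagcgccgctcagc
*Prdx1*, chr4:116685446-116685494, minus strand: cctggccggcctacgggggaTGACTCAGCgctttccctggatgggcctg
*Pgd*, chr4:149166051-149166099, minus strand: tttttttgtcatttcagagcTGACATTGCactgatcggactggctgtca
*Txnrd1*, chr10:82859094-82859142, minus strand: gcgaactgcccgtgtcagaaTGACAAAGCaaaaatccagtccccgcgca
*Sod1*, chr16:90220686-90220734, minus strand: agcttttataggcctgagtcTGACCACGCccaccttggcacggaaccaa
*G6pdx*, chrX:74428909-74428957, plus strand: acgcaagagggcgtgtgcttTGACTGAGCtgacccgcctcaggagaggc

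Of the 5 genes whose level was lower by 2-fold or more without USP21 (below), *Txnrd1* and *Pgd* held the core in 1 of their windows, and *Tkt* and *Prdx4* held none. The match of *Pgd* lies downstream of an annotated start inside the gene, at position 4 from it, and not in upstream sequence. The *Pgd* window at the outer start of the gene (chr4:149166656-149166955) held none. The whole window of *Txnrd1* that holds the match and those of *Tkt* and *Prdx4* are given on the strand of the gene, with the core in capitals (there as its reverse complement).
*Txnrd1*, chr10:82858956-82859255, plus strand: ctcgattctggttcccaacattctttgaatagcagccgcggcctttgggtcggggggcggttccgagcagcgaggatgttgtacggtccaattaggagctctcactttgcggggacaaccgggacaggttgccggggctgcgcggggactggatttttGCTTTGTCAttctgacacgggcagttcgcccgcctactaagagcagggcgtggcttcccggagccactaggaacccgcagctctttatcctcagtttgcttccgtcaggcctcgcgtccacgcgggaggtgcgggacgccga
*Tkt*, chr14:30548881-30549180, plus strand: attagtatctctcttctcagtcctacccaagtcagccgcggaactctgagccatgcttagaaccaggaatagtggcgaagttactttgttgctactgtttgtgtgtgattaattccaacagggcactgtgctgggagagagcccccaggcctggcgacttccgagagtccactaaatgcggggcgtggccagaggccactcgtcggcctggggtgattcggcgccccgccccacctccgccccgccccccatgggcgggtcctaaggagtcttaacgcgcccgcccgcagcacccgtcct
*Prdx4*, chrX:155338411-155338710, minus strand: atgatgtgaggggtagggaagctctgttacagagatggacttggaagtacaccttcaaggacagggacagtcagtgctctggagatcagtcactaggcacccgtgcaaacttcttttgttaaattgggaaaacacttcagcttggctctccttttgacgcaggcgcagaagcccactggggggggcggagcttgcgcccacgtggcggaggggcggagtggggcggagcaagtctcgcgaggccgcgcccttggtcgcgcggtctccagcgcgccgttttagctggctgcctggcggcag

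The libraries held 23198412 fragments in genes in WT Treg cells against 23418575 in USP21-ΔTreg cells. *Usp21* stood at 11.8 FPKM in WT Treg cells against 4.56 FPKM in USP21-ΔTreg cells, in the direction of the labels. All 8 Treg and T cell identity genes were expressed in both libraries, 5 of them higher in USP21-ΔTreg cells and 3 lower. With WT first, *Cd3e* stood at 79.3 and 131 FPKM, *Cd4* at 133 and 204 FPKM and *Foxp3* at 91.8 and 55.2 FPKM. *Il2ra*, which encodes CD25 and was part of the sort, stood at 168 and 19.3 FPKM. Markers of other cells were low but not absent, and most were higher in USP21-ΔTreg cells. Summed FPKM, WT first, was 12.7 and 37.3 for 7 B cell genes (all 7 higher), and 14.9 and 46.2 for 9 NK and CD8 T cell genes (all 9 higher). It was 34.2 and 96.4 for 9 erythroid genes (7 higher), whose globins share reads, and 30.0 and 56.5 for 17 myeloid and macrophage genes (9 higher). Of all 16830 genes, 10332 were higher in USP21-ΔTreg cells, a larger share than among the myeloid and macrophage genes. What these cells contribute to the values below was not tested.

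The redox and pentose phosphate genes took a slightly smaller part of the RNA in USP21-ΔTreg cells. They held 88182 fragments in WT Treg cells, or 0.380% of the library (95% exact binomial interval 0.378 to 0.383), and 78799 in USP21-ΔTreg cells, or 0.336% (0.334 to 0.339). These and all later intervals cover counting error only, not the spread between mice. Summed over the 37 genes, levels were 2971 FPKM in WT Treg cells against 2695 FPKM in USP21-ΔTreg cells. In bulk RNA, fewer cells that express a gene and less of its RNA per cell cannot be told apart.

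Differences were taken as log2 ratios of FPKM + 0.1, USP21-ΔTreg over WT, for genes with a mean of at least 1 FPKM, which 10948 genes and 36 of the 37 passed. Every one of the 36 stood above 1 FPKM in both libraries, so that none was kept through 1 library alone. *Gstm5*, a mu-class glutathione transferase, was left out at 0.438 FPKM (9 fragments) in WT Treg cells against 0.252 FPKM (5 fragments) in USP21-ΔTreg cells. Of the 36 genes kept, 5 (13.9%) were lower by 2-fold or more in USP21-ΔTreg cells and 0 were higher by that much. Among all genes kept, 6.2% were lower by that limit and 7.78% were higher. The 5 lower genes were *Hmox1*, *Txnrd1*, *Prdx4*, *Tkt* and *Pgd*.

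The authors also deposited fragment counts scaled between the libraries, and on that scale, with 1 fragment added, 6 genes (16.7%) were lower and 0 higher. The sixth was *Txn1*. The background on scaled counts was 7.93% lower and 4.34% higher. Of the 36 genes, 23 (63.9%) had a log2 fold change below 0 on FPKM, against 36.6% of all genes, and 24 (66.7%) did on scaled counts, against 50.6%. Their median log2 fold change was −0.15 on FPKM, where the median of all genes was 0.20, and −0.32 on scaled counts, where that of all genes was −0.01. Relative to all genes the median was thus lower by nearly the same amount on both scales, with differences of −0.34 and −0.32. Values below are given as they stand, without taking the shift of 0.20 off.

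**Figure D1:**
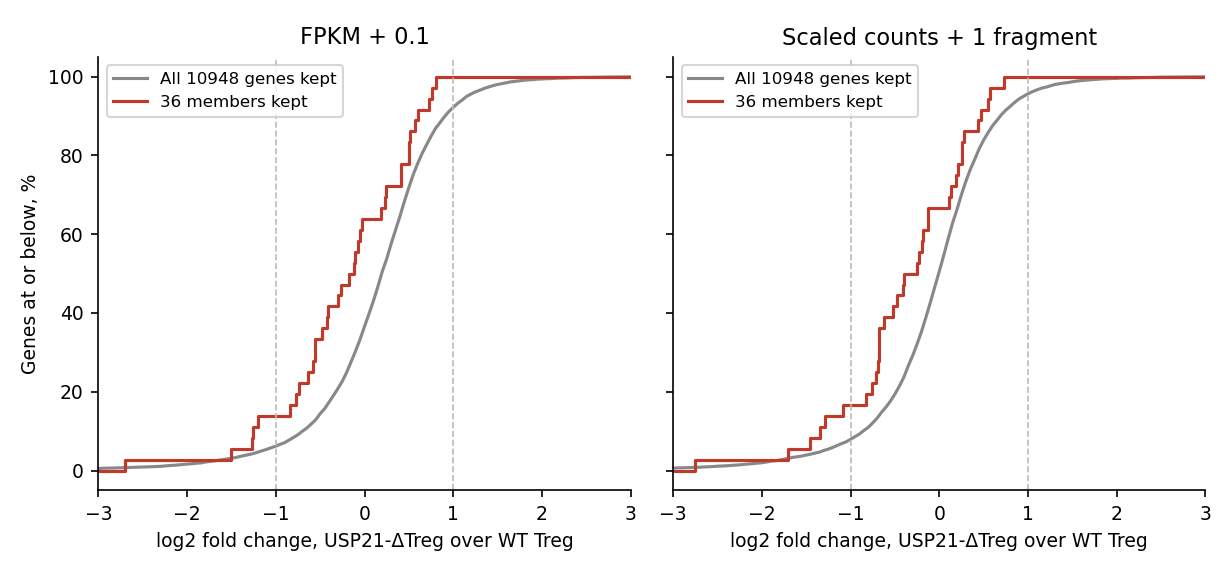
Share of genes (vertical axis, %) at or below each log2 fold change, USP21-ΔTreg over WT Treg (horizontal axis), for the 36 genes kept (red steps) and all 10948 genes kept (grey line), on FPKM + 0.1 (left) and on scaled counts with 1 fragment added (right). Dashed lines mark 2-fold. At 0 the red steps stood at 63.9% and the grey line at 36.6% on FPKM, and at 66.7% and 50.6% on scaled counts.

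The genes did not lie on 1 side. On FPKM, 13 of the 36 were higher in USP21-ΔTreg cells, up to a log2 fold change of 0.81 in *Glrx*. From the split of each gene's fragments between the libraries, the ratio of scaled counts had a 95% Clopper-Pearson interval wholly below 1 for 23 genes, wholly above 1 for 9, and spanning 1 for 4 (*Nqo1*, *Gss*, *Mgst3* and *Txnrd2*). The same shares over all genes were not computed, so these counts show the precision of depth and no trait particular to the 36. Both scales gave the same sign for every gene kept except *Sod2*.

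**Figure D2:**
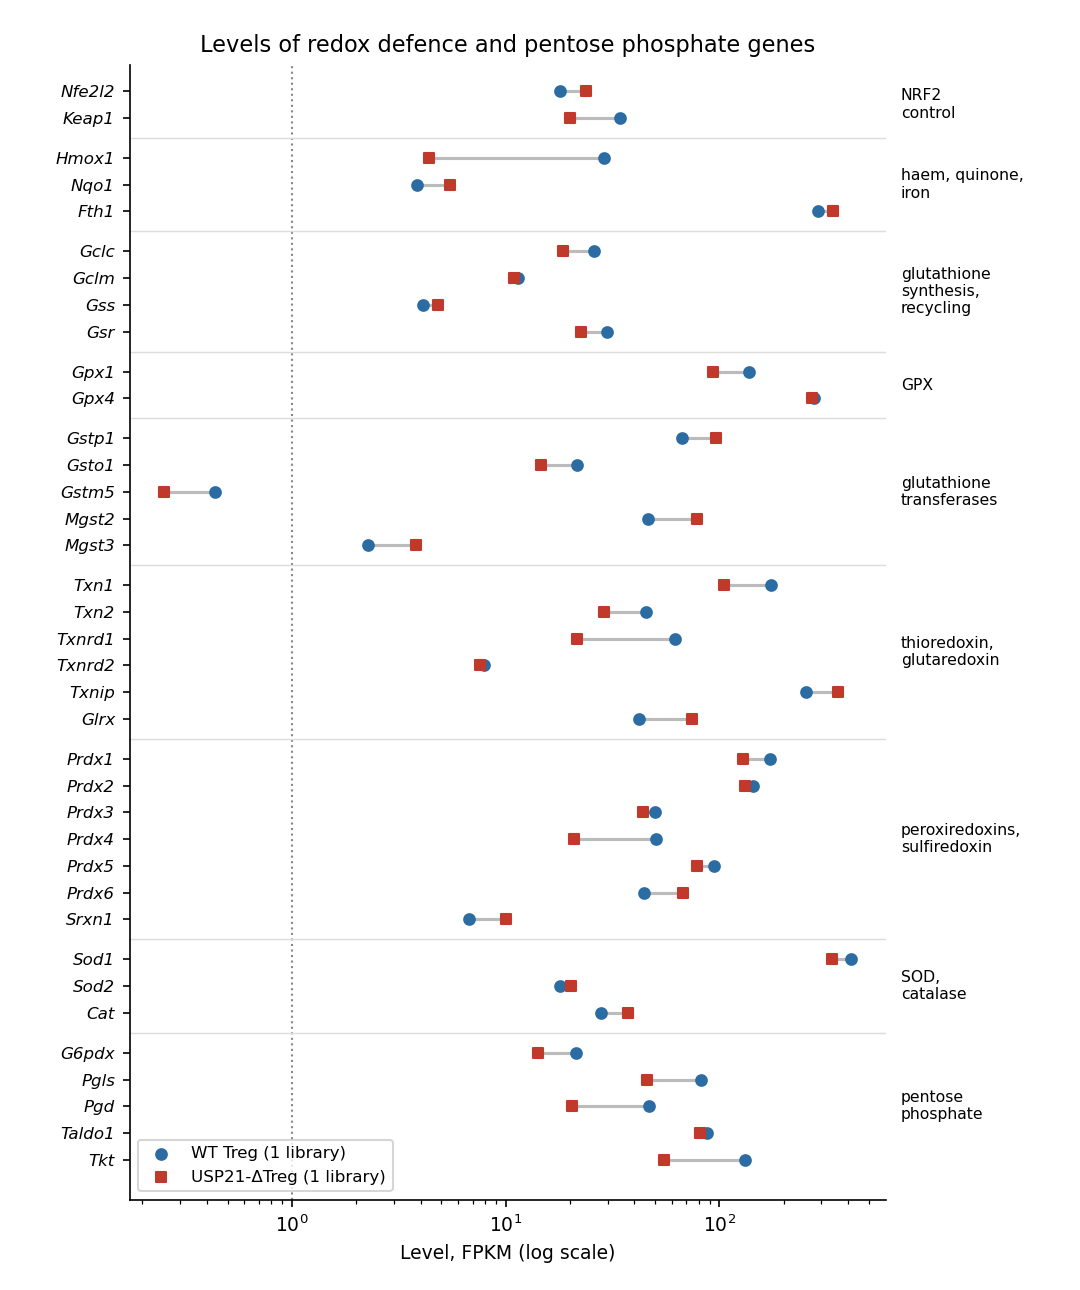
Level of each of the 37 genes in FPKM (horizontal axis, log scale) in the library of WT Treg cells (blue circles) and of USP21-ΔTreg cells (red squares), 1 library each, grouped by role, with a dotted line at 1 FPKM. The widest gap is that of *Hmox1*, at 28.9 and 4.36 FPKM, and all 5 pentose phosphate enzymes have the blue circle to the right.

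**Figure D3:**
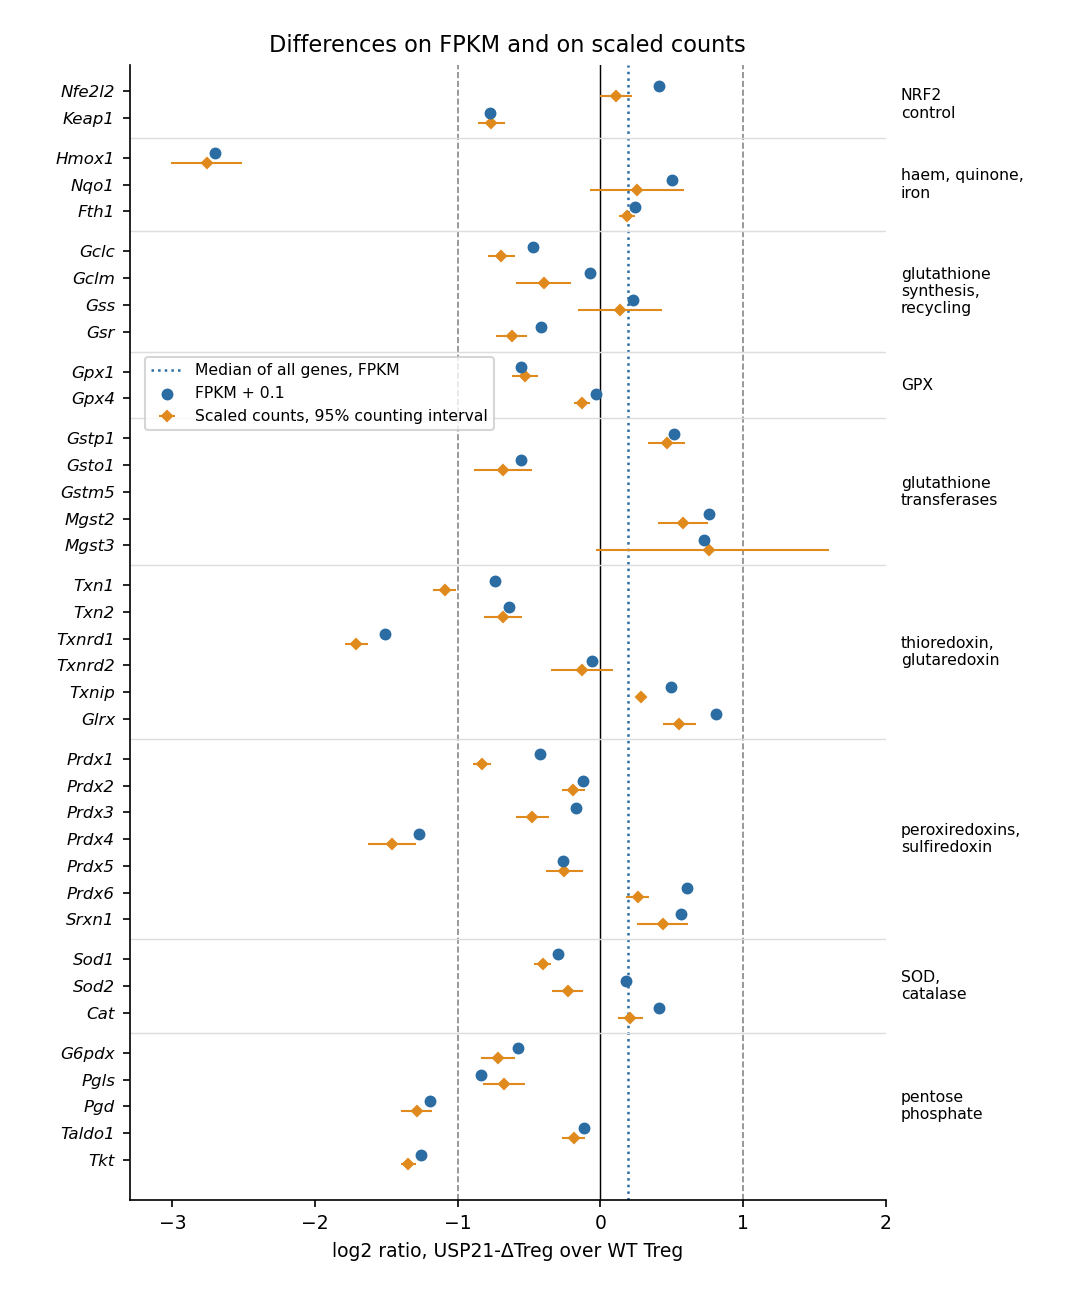
Log2 ratio, USP21-ΔTreg over WT Treg, of FPKM + 0.1 (blue circles) and of scaled counts (orange diamonds, bars for the 95% Clopper-Pearson counting interval) for the genes kept, grouped by role; *Gstm5* was not kept. The dotted line is the FPKM median of all genes (0.20) and dashed lines mark 2-fold. *Hmox1*, *Txnrd1*, *Prdx4*, *Pgd* and *Tkt* lie left of −1 on both scales, and no gene lies right of 1 by either point.

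The genes of the NRF2 switch differed in opposite directions. *Nfe2l2*, which encodes NRF2, stood at 17.9 FPKM in WT Treg cells against 23.8 FPKM in USP21-ΔTreg cells (a log2 fold change of 0.41). *Keap1*, the adaptor that hands NRF2 to a ubiquitin ligase, stood at 34.2 and 19.96 FPKM (−0.77). Within a library, *Nfe2l2* was therefore lower than *Keap1* in WT Treg cells, at 0.524 of its FPKM, and above it in USP21-ΔTreg cells, at 1.19. On scaled counts this ratio was 1.83 times higher in USP21-ΔTreg cells (95% counting interval 1.66 to 2.02). The order of the pair was reversed on FPKM only. In scaled counts, which are not divided by transcript length, *Nfe2l2* stayed below *Keap1* in both libraries. The values were 1267 against 2383 in WT Treg cells and 1368 against 1404 in USP21-ΔTreg cells. The difference in *Nfe2l2* alone was small on that scale, at a ratio of 1.08 (interval 1.00 to 1.17), while that of *Keap1* was 0.589 (0.552 to 0.629). An annotated antisense transcript, *Gm16754*, overlaps exons of *Keap1*, and whether fragments were counted by strand is not given in the sources used here.

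Well-known targets of NRF2 did not share a direction. *Hmox1* (Entrez gene 15368, mm10 chr8:75093621-75100589, plus strand) encodes heme oxygenase 1, which breaks heme down to biliverdin, carbon monoxide and iron. It stood at 28.9 FPKM in WT Treg cells (959 fragments) against 4.36 FPKM in USP21-ΔTreg cells (159 fragments), which is 6.50-fold lower and a log2 fold change of −2.70. Among all genes kept, *Hmox1* ranked 2775 of 10948 by level in WT Treg cells against 8823 in USP21-ΔTreg cells. Its ratio of scaled counts was 0.148 (95% counting interval 0.124 to 0.175). On FPKM + 0.1 it was the only gene of the 36 lower by more than 3-fold, whereas on scaled counts *Txnrd1* was too (ratio 0.306).

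*Nqo1*, a quinone reductase often used as a readout of NRF2, was low in both libraries at 3.85 and 5.50 FPKM. Its 136 and 182 fragments gave a ratio of scaled counts of 1.19 with an interval from 0.9503 to 1.501, so that no difference was detectable at this depth. *Fth1*, the ferritin heavy chain that stores iron, was among the most abundant of the genes at 288 and 341 FPKM (log2 fold change 0.24). Ferritin light chain *Ftl1*, which is not among the 37, stood at 1114 and 578 FPKM (−0.95), and the ratio of *Fth1* to *Ftl1* was 0.258 in WT Treg cells against 0.590 in USP21-ΔTreg cells. Heavy and light chain thus had opposite signs. *Ftl1* was named after its values were seen.

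Heme oxygenase is abundant in the splenic macrophages that recycle red cells, and 8 of the myeloid genes mark such resident macrophages. The 8 were picked out after their values were seen. They come from the list of 17 whose summed level was higher in USP21-ΔTreg cells (30.0 and 56.5 FPKM). Of the 8, 0 reached a mean of 1 FPKM, so their values lie near the floor. Their summed level was 3.32 FPKM in WT Treg cells against 0.957 FPKM in USP21-ΔTreg cells, and 7 of the 8 were lower in USP21-ΔTreg cells. *Spic*, the transcription factor of these macrophages, stood at 0.676 and 0.0937 FPKM, and the scavenger receptor *Marco* at 0.418 and 0.0151 FPKM. *C1qa* and *C1qc*, of complement C1q, were at 0 in USP21-ΔTreg cells, and *Cd163* was at 0 in WT Treg cells. The other 9 myeloid genes summed to 26.7 and 55.5 FPKM, the opposite direction. They include general macrophage genes that were higher in USP21-ΔTreg cells, *Cd68* at 2.11 and 4.99 FPKM, *Emr1* at 0.239 and 0.374 FPKM and *Csf1r* at 0.244 and 0.338 FPKM. The part that macrophage RNA has in the difference in *Hmox1* was not tested.

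Genes of glutathione synthesis and recycling lay mostly below 0, with none of the 4 past 2-fold and a median log2 fold change of −0.24 on FPKM and −0.51 on scaled counts. *Gclc*, the catalytic subunit of the rate-limiting glutamate-cysteine ligase, stood at 25.8 and 18.5 FPKM (−0.48), with a ratio of scaled counts of 0.619 (95% counting interval 0.580 to 0.660). Its regulatory partner *Gclm* stood at 11.5 and 10.9 FPKM (−0.069), with a ratio of 0.759 (0.663 to 0.869). The catalytic subunit exceeded the regulatory one in both libraries, 2.25-fold in WT Treg cells against 1.70-fold in USP21-ΔTreg cells. *Gsr*, which recharges oxidised glutathione with NADPH, stood at 29.9 and 22.4 FPKM (−0.41). Glutathione synthetase *Gss* was low in both libraries, at 4.09 and 4.80 FPKM, and its interval of 0.897 to 1.35 held 1. Exons of *Gclm* and *Gss* overlap those of other annotated genes, so that some of their fragments may belong to these.

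Of the glutathione peroxidases, *Gpx1*, which reduces hydrogen peroxide, stood at 138 and 93.6 FPKM (−0.56). *Gpx4*, which reduces lipid peroxides and guards against ferroptosis, was nearly level at 277 and 271 FPKM (−0.029). It is listed over a locus of 672333 bases whereas the annotated gene spans 9273, and it has an annotated pseudogene copy, so its value is uncertain.

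Glutathione transferases, which join glutathione to electrophiles, were mostly higher, with a median of 0.62 on FPKM and 0.52 on scaled counts over the 4 kept. The medians of all genes were 0.20 and −0.01. On FPKM, 3 of the 4 lay above 0, as did 6945 of all 10948 genes kept. *Mgst2*, a microsomal transferase, stood at 46.5 and 78.8 FPKM (0.76). *Gstp1*, the pi-class enzyme, stood at 67.0 and 95.8 FPKM (0.52), and its near-identical neighbour *Gstp2*, which can share its reads, at 7.70 and 22.5 FPKM (1.54). *Gsto1*, an omega-class enzyme, was the exception at 21.5 and 14.6 FPKM (−0.56). *Mgst3* rested on 21 and 40 fragments, the fewest of the genes kept, and its interval of 0.978 to 3.03 held 1.

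In the thioredoxin system the carrier and its reductase were lower and the inhibitor was higher. *Txnrd1* (Entrez gene 50493, chr10:82833951-82897712, plus strand) encodes the cytosolic selenoenzyme that recharges thioredoxin with NADPH. It stood at 61.9 FPKM in WT Treg cells against 21.7 FPKM in USP21-ΔTreg cells, 2.85-fold lower (log2 fold change −1.51), from 4987 and 1710 fragments. Its rank by level went from 1236 to 3874. *Txn1* (Entrez gene 22166, chr4:57943373-57956411, minus strand), cytosolic thioredoxin, stood at 174 and 105 FPKM (−0.74), with 3427 and 1804 fragments. On FPKM it lay inside the 2-fold limit and on scaled counts just outside, at a log2 fold change of −1.09 and a ratio of 0.469 (95% counting interval 0.443 to 0.497).

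*Txnip* (Entrez gene 56338, chr3:96557957-96561883, plus strand), which binds and inhibits thioredoxin and restrains glucose uptake, stood at 253 and 357 FPKM (0.50). With 15904 and 21700 fragments it held more than any other of the 37 genes, and its ratio of scaled counts was 1.22 (1.19 to 1.24). *Txnip* was thus 1.45 times the level of *Txn1* in WT Treg cells against 3.41 times in USP21-ΔTreg cells. On scaled counts that ratio was 2.59 times higher in USP21-ΔTreg cells (95% counting interval 2.44 to 2.75). The ratio of *Txnip* to *Txnrd1* was 4.09 and 16.5. *Txnip* is listed over 11034 bases, beyond the 3926 of the annotated gene, and *Gm15441* overlaps its exons on the other strand.

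The mitochondrial forms of both proteins were compared with the cytosolic ones within each library. *Txnrd2*, the mitochondrial reductase, was nearly level at 7.88 and 7.58 FPKM (log2 fold change −0.055), with an interval of 0.786 to 1.07 on scaled counts. The cytosolic reductase was 7.85 times the level of the mitochondrial one in WT Treg cells against 2.86 times in USP21-ΔTreg cells. That ratio was lower in USP21-ΔTreg cells by a factor of 0.334 on scaled counts (95% counting interval 0.285 to 0.392). Mitochondrial thioredoxin, *Txn2*, stood at 45.2 and 29.0 FPKM (−0.64), close to the difference in *Txn1* on FPKM. On scaled counts the ratio of *Txn1* to *Txn2* was lower in USP21-ΔTreg cells by a factor of 0.753 (95% counting interval 0.677 to 0.838), the same direction as for the reductases. *Txnrd2* is listed over 130892 bases against 52689 annotated, so its value is uncertain. *Glrx*, glutaredoxin 1, which removes glutathione from proteins, was at 42.2 and 74.2 FPKM and had the highest log2 fold change of the 36 genes on FPKM (0.81). On scaled counts its value was 0.55, below those of *Mgst3* (0.73) and *Mgst2* (0.58).

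Peroxiredoxins were led by *Prdx4* among the lower genes. *Prdx4* (Entrez gene 53381, chrX:155323918-155340754, minus strand) encodes the peroxiredoxin of the endoplasmic reticulum, where it uses peroxide made during disulphide formation. It stood at 50.4 FPKM in WT Treg cells (992 fragments) against 20.9 FPKM in USP21-ΔTreg cells (405 fragments), 2.41-fold lower (−1.27), with a ratio of scaled counts of 0.364 (95% counting interval 0.323 to 0.409). Its level was that of mitochondrial *Prdx3* in WT Treg cells, at a ratio of 1.01, and less in USP21-ΔTreg cells, at 0.474. *Prdx3* stood at 49.7 and 44.1 FPKM (−0.17).

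The other peroxiredoxins were within 2-fold. Cytosolic *Prdx1* stood at 172 and 129 FPKM (−0.42), and its ratio of scaled counts was 0.563 (0.540 to 0.588). *Prdx2*, a second cytosolic enzyme, stood at 143 and 132 FPKM (−0.12), and *Prdx5*, found in mitochondria and peroxisomes, at 94.4 and 78.7 FPKM (−0.26). Exons of *Prdx2* overlap *Junb* and *Rnaseh2a* on the other strand, and those of *Prdx5* overlap *Trmt112*. *Prdx6*, which uses glutathione in place of thioredoxin, was the only higher peroxiredoxin, at 44.4 and 67.7 FPKM (0.61), and it has a pseudogene copy. *Srxn1*, the sulfiredoxin that repairs overoxidised peroxiredoxins, stood at 6.76 and 10.1 FPKM (0.57). Of the summed peroxiredoxin FPKM, which was 554 and 471, *Prdx4* made up 9.09% in WT Treg cells against 4.43% in USP21-ΔTreg cells, and *Prdx6* made up 8.01% and 14.4%.

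Superoxide dismutases and catalase were all within 2-fold. *Sod1*, the cytosolic copper-zinc enzyme, had the highest level of the 37 genes in WT Treg cells, at 413 FPKM, and stood at 336 FPKM in USP21-ΔTreg cells (−0.30). Mitochondrial *Sod2* stood at 17.9 and 20.3 FPKM (0.18), and its direction was not the same on scaled counts (log2 fold change −0.23). Catalase, *Cat*, which breaks down hydrogen peroxide in peroxisomes, stood at 27.9 and 37.2 FPKM (0.41). Erythroid cells are rich in catalase and *Prdx2*, and the summed erythroid markers given above were higher in USP21-ΔTreg cells, as *Cat* was and *Prdx2* was not; their part was not tested.

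All 5 pentose phosphate enzymes were lower in USP21-ΔTreg cells, and 2 of them by at least 2-fold. Their summed level was 369.7 FPKM in WT Treg cells against 217 FPKM in USP21-ΔTreg cells, and their median log2 fold change was −0.84 on FPKM and −0.72 on scaled counts. Among all genes kept, 36.6% lay below 0 on FPKM and 6.2% were at least 2-fold lower. On scaled counts these shares were 50.6% and 7.93%. On the oxidative branch, *G6pdx*, the committed and rate-limiting enzyme that makes the first NADPH, stood at 21.2 and 14.2 FPKM (−0.58), with a ratio of scaled counts of 0.608 (95% counting interval 0.559 to 0.661). *G6pdx* (Entrez gene 14381, chrX:74409483-74429194, minus strand) is listed over 60488 bases, and exons of *Ikbkg* overlap it on the other strand. The lactonase *Pgls* stood at 82.2 and 45.9 FPKM (−0.84), with a ratio of 0.626 (0.565 to 0.693), and exons of *Fam129c* overlap it on the same strand.

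*Pgd* (Entrez gene 110208, chr4:149149991-149166771, minus strand) makes the second NADPH and ribulose 5-phosphate. It stood at 46.7 FPKM in WT Treg cells (2211 fragments) against 20.3 FPKM in USP21-ΔTreg cells (1016 fragments), 2.29-fold lower (−1.195), and its ratio of scaled counts was 0.410 (0.380 to 0.442). *Pgd* differed more than *G6pdx*, whose level was 0.454 of that of *Pgd* in WT Treg cells against 0.698 in USP21-ΔTreg cells. Of the 3 oxidative enzymes *G6pdx* differed least on FPKM, whereas on scaled counts *Pgls* did (log2 fold changes of −0.72 and −0.68).

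On the non-oxidative branch, which links ribose 5-phosphate to glycolysis, the enzymes differed in size. Transketolase, *Tkt* (Entrez gene 21881, chr14:30548359-30574720, plus strand), was the most abundant of the 5 in WT Treg cells at 132 FPKM and stood at 55.1 FPKM in USP21-ΔTreg cells, 2.39-fold lower (−1.26). Its 9887 and 4365 fragments gave a ratio of scaled counts of 0.394 (95% counting interval 0.380 to 0.408). Transaldolase, *Taldo1*, stood at 87.6 and 81.1 FPKM (−0.11). *Tkt* was thus 1.51 times the level of *Taldo1* in WT Treg cells against 0.679 of it in USP21-ΔTreg cells, and the order of the pair was reversed. On scaled counts that ratio was lower by a factor of 0.448 (0.419 to 0.480).

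Other genes of the same pathways were described by lists that hold none of the 37. The shares are to be read against the same background, 6.2% lower and 7.78% higher. Of 11 other pentose phosphate and ribose enzymes, all kept, 0 were at least 2-fold lower and 1 was higher, with a median log2 fold change of 0.22, close to that of all genes. The 1 was *Tktl1*, a transketolase-like gene, at 0.256 and 2.55 FPKM, which was named after its values were seen. *H6pd*, the endoplasmic reticulum counterpart of *G6pdx*, stood at 9.70 and 11.3 FPKM, and *Rpia*, which makes ribose 5-phosphate, at 24.6 and 27.0 FPKM. These were also named after their values were seen. Of the 11, 2 had a log2 fold change below 0 on FPKM (36.6% of all genes did) and 5 on scaled counts (50.6% of all genes), whereas all 5 enzymes above did on both scales. Both sets were drawn up with earlier results of these data known, so the contrast between them is a description only.

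A further list held enzymes that make NADPH or phosphorylate NAD, and some related enzymes that do neither. Of its 11 kept genes, 2 were lower and 0 higher. Both belong to the folate pathway, of which some steps yield NADPH, although the enzyme of *Mthfd1l* does not itself make it. *Mthfd1l*, the mitochondrial formate-producing enzyme, stood at 78.1 and 19.4 FPKM (−2.00), and cytosolic *Mthfd1* at 23.1 and 7.23 FPKM (−1.66). The median of this list was −0.26.

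Partners and regulators of NRF2 had a median of −0.01 over the 10 kept, with 1 lower and 0 higher. The 1 was *Maff*, a small MAF protein that pairs with NRF2 on DNA, at 14.6 and 2.90 FPKM (−2.29). Of 10 further NRF2 targets kept, 2 were lower and 1 higher, with a median of 0.01. *Trib3*, a pseudokinase that is also a target of the stress factor ATF4, stood at 18.02 and 3.31 FPKM (−2.41). *Abcc1*, which exports glutathione conjugates, stood at 37.3 and 17.0 FPKM (−1.13). *Osgin1* was the higher one at 1.198 and 3.62 FPKM (1.52), and was named after its values were seen.

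The further glutathione genes lay mostly above 0, with 3 of 17 kept at least 2-fold higher, 0 lower and a median of 0.50 on FPKM. Of the 17, 6 lay below the median of all genes (0.20). With a minimum mean of 5 FPKM the median of the list was 0.21, near that of all genes (0.15), so the shift lay largely in genes of low level. On scaled counts 2 were higher and the median was 0.38. The 3 were the transferases *Gstp2*, given above, *Gsta4* at 2.13 and 6.45 FPKM (1.56) and *Gstk1* at 1.63 and 3.55 FPKM (1.07). *Gsta4* and *Gstk1* were named after their values were seen.

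Of 23 further thioredoxin-fold, redox-arrestin and methionine repair genes, 2 were higher and 2 lower on FPKM, with a median of −0.11. Members of the arrestin family of *Txnip* differed in both directions. *Arrdc3* stood at 17.4 and 43.0 FPKM (1.30) and *Arrdc4* at 20.2 and 9.59 FPKM (−1.06). *Sesn1*, a sestrin that limits mTORC1, stood at 25.0 and 55.2 FPKM (1.14). *Txnrd3*, the third thioredoxin reductase, stood at 3.25 and 1.15 FPKM (−1.43) and was named after its values were seen. On scaled counts 0 of the 23 were higher and 2 were lower, *Txnrd3* and *Glrx3* (log2 fold change −1.05), while *Arrdc4* lay inside 2-fold at −0.85. *Glrx3*, a glutaredoxin of iron handling, stood at 39.1 and 24.1 FPKM and was also named after its values were seen.

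Among 11 kept genes for sources of reactive oxygen, 2 were lower and 0 higher, with a median of 0.17. *Ero1l*, the oxidase that makes peroxide in the endoplasmic reticulum while forming disulphides, stood at 104 and 24.4 FPKM (−2.08), the same direction as *Prdx4* of that compartment. *Ncf1*, a subunit of the phagocyte NADPH oxidase, stood at 12.5 and 4.22 FPKM (−1.54).

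**Figure D4:**
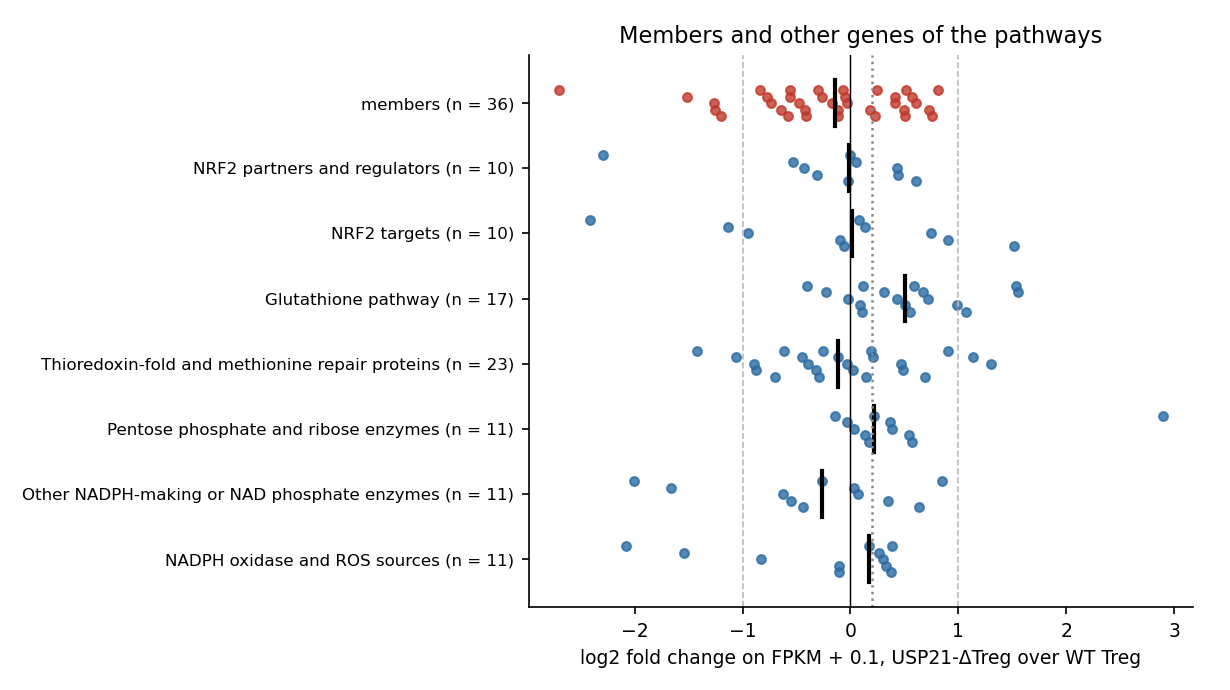
Log2 fold change on FPKM + 0.1, USP21-ΔTreg over WT Treg (horizontal axis), of each kept gene (points, vertical offset for legibility only) of the 37 (top, red) and of 7 other lists (blue), with black bars for list medians. The dotted line is the median of all genes and dashed lines mark 2-fold. Medians run from −0.26 for other NADPH or NAD phosphate enzymes to 0.50 for the glutathione pathway, with −0.15 for the 36 genes.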

How the data were processed

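RNA-seq was made from Treg cells of both genotypes, 1 library each. By the labels, RNA was taken with Trizol and libraries made with the TruSeq RNA Sample Prep Kit; by the study's methods, with RNeasy and a stranded total RNA kit. The authors dropped reads of low quality or with adaptor or ribosomal sequence, aligned the others by TopHat 2.0.9 (mm10, 2 mismatches allowed), and quantified genes by Cufflinks 2.1.1. The deposited FPKM values are fragments per transcript length and library size. The deposited estimated counts are scaled between libraries. They were divided by the commonest value above 0 in each library, taken as 1 fragment (1.03 in WT, 0.918 in USP21-ΔTreg cells), and rounded to whole fragments; 97.2% of values above 0 were whole within 0.02. Depth sets the precision, given as counting intervals. The reads carried no molecular identifiers that the sources used here describe.

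Log2 ratios of FPKM + 0.1 were computed for genes with a mean of at least 1 FPKM, with a limit of 2-fold, and exact (Clopper-Pearson) 95% intervals from fragments, with scipy 1.17.1, pandas 2.3.3 and numpy 2.4.6 under Python 3.11.15 (figures with matplotlib 3.10.9). Steps were tested on simulated data. Gene positions came from GENCODE M21, promoters from RefSeq. All 37 genes were named, and of other lists those past 2-fold with a mean of at least 5 FPKM, up to 6 per list; others are marked in the text. The genes and lists were chosen with earlier results of these data known. Alternatives were pseudocounts, filters, fold limits, scaling and scaled counts. The authors' test columns were not used.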

Additional observations from a re-analysis of the deposited data

How the results depend on the processing

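*Hmox1*, *Txnrd1*, *Prdx4*, *Tkt* and *Pgd* stayed at least 2-fold lower under each of the alternatives that kept the 2-fold limit, with log2 fold changes between −2.90 and −1.16. Over 10 alternatives, *Gpx4* and *Sod2* were the only 2 of the 36 genes whose sign differed in any. Centring on the median of all genes added *Pgls* to the lower genes, and scaled counts added *Txn1*. At 1.5-fold, 4 of the 36 genes were higher and 9 lower, against 2506 and 1326 of all 10948 genes kept. The lower share was thus above that of all genes and the higher share below it. At 3-fold, 1 of the 36 was lower (*Hmox1*) and 0 were higher, against 312 lower and 178 higher of the 10948. At that limit the lower share was close to that of all genes. All genes at least 2-fold higher, 852 as reported, numbered 482 with 1 FPKM added, 1460 with no filter, 447 with a minimum mean of 5 FPKM, 488 after centring and 475 on scaled counts. The median log2 fold change of the genes kept, −0.15 as reported, was −0.26 with a minimum mean of 5 FPKM, −0.34 after centring and −0.32 on scaled counts. No paired analysis was possible because there was 1 library for WT and 1 for USP21-ΔTreg cells. Leaving out a library was not possible either, so these settings say nothing of the spread between mice. Depth limits *Mgst3* (21 and 40 fragments), *Gstm5*, *Nqo1* and *Gss*. The cause of the gap between FPKM and scaled counts was not tested.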
